A study of Mus musculus with 6 samples.

Results

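The Naip genes encode cytosolic sensors of bacterial proteins, and in the mouse genome they lie side by side with Ocln, the gene deleted in the mice studied here. The 6 members described are Naip1, Naip2, Naip3, Naip3-ps1, Naip5 and Naip6, found by their symbols among the 16701 genes that the authors' deposited table lists. They were chosen by their pattern in the single comparison of that table, Ocln knockout over control, so their fold changes and p-values are given as a description and carry no independent test. The series compared luminal epithelial cells of the mouse mammary gland, the cells that line the ducts and make milk. One group was 3 libraries of polyadenylated RNA from Ocln knockout (Ocln-/-) mice and the other 3 libraries from control mice labelled WT, all at 7 weeks of age. The sources used here do not give the strain background, how the deletion was made, how the cells were isolated or whether each library came from its own mouse. The p-values thus weigh each fold change only against the scatter of these libraries, which may in part be technical.

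NAIP proteins are receptors of the NLR family with BIR repeats at one end and a leucine-rich repeat region at the other. In the mouse, NAIP5 and NAIP6 bind flagellin, the protein of the bacterial flagellum, NAIP1 binds the needle protein and NAIP2 the inner rod protein of type III secretion systems. A bound NAIP recruits NLRC4, and the assembled inflammasome activates caspase-1, which matures interleukins and cuts gasdermin D to open pores in the cell membrane. Macrophages and intestinal epithelial cells are the best studied sites of this response. The cluster, known as the Lgn1 locus for its role in resistance to Legionella, differs in gene content and sequence between inbred mouse strains. Naip3 and Naip3-ps1 are annotated as unprocessed pseudogenes, copies with no known protein.

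On GRCm38 the members fill 309 kb of chromosome 13, from 100144063 to 100452869, all on the minus strand like Ocln. In the GENCODE annotation Naip2 lies at 100144063 to 100202092 and Naip5 at 100211739 to 100246323. Next come Naip3-ps1 at 100264745 to 100278817 and Naip6 at 100281121 to 100317674. Naip3 lies at 100340144 to 100378960 and Naip1 at 100407764 to 100452869. The end of Naip1 is 43.6 kb from Ocln, which lies at 100496507 to 100552718, and the transcription factor subunit gene Gtf2h2 stands between them.

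The promoters of the 4 protein-coding members are shown because these genes are neighbours of common descent whose levels are compared here. Each sequence runs from 250 bases before to 50 after the RefSeq start on GRCm38.p6, 5′ to 3′ on the minus strand, and capitals mark the longest run that it shares exactly with another member.
Naip2, chr13:100202073-100202372: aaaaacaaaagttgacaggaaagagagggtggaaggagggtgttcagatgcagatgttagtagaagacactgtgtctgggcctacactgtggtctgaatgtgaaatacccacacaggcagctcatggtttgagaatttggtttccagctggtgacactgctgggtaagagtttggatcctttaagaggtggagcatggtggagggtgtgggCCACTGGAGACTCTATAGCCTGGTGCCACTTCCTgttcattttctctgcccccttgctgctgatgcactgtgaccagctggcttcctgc
Naip5, chr13:100247287-100247586: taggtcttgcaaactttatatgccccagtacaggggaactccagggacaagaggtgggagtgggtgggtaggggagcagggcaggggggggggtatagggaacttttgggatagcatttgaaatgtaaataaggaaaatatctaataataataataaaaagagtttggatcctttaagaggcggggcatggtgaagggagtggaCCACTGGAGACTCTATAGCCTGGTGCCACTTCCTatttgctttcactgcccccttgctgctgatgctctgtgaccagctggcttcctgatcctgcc
Naip6, chr13:100316567-100316866: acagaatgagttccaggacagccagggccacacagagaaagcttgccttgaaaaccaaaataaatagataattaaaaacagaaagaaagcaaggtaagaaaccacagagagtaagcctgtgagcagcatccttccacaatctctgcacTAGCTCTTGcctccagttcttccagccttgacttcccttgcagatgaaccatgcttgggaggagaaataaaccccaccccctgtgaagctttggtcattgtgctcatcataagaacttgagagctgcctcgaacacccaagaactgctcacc
Naip1, chr13:100452815-100453114: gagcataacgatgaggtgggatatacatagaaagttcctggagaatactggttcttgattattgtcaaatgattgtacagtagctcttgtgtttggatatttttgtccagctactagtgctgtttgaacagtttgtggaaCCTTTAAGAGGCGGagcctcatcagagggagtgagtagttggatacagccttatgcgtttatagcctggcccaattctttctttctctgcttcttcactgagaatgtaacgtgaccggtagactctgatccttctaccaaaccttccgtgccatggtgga

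The promoters of Naip2 and Naip5 shared a run of 34 bases that begins 39 bases before the start of Naip2 and 46 bases before that of Naip5. No other of the 32851 RefSeq promoters held that run on the same strand. Naip1 and Naip5 shared 14 bases, CCTTTAAGAGGCGG, which 6 of the 32851 promoters held, and its first 11 bases stood in the Naip2 promoter too. The Naip6 promoter shared no run longer than 9 bases with the others, although Naip5 and Naip6 had the most alike transcripts of the coding members. In GENCODE a second transcript of Naip6 starts at 100317674 and the transcript of Naip5 at 100246323, both outside the windows printed, so for Naip5 the window is that of the RefSeq start only. The letters TATAAA were found on either strand in the promoters of Naip1 and Naip5, and in 13.6 percent of all promoters. The interferon response core GAAANNGAA was found in that of Naip2, and in 8.56 percent of all. The letters GAGGAAG, 1 form of the ETS site that factors such as PU.1 can bind, were found in 0 of the 4, and in 13.6 percent of all. Other forms of the ETS site were not searched, so this count does not show that such sites are absent. The run shared by Naip2 and Naip5 ends in ACTTCCT, or AGGAAGT on the other strand, which the letters searched do not cover. All of these are matches of letters, and no overlap with other motifs was searched.

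All 6 Naip members had a positive log2 fold change in the authors' deposited table, and 3 of them, Naip6, Naip5 and Naip3, passed an adjusted p of 0.05. Over all listed genes 1.08 percent passed in either direction and 0.808 percent were higher in the knockout, which is the background to the members' count and is not used to support it. A positive log2 fold change was held by 8145 of the 16701 genes. Naip6 and Naip5, the flagellin sensors, were each about 3.9-fold higher in Ocln knockout cells. The cluster ends 43.6 kb from the deleted gene, and the strain background is not given. Whether knockout and control mice carry the same strain sequence at the cluster was not tested. The pseudogene Naip3 had the largest log2 fold change of all 16701 genes in the authors' deposited table. Values per library were not used here, so for each member the mean level over the libraries, the fold change and its standard error stand in place of values per sample.

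Naip6 had the highest level of the family, with a mean of 572 normalized counts over the libraries in the authors' deposited table. There it rose by 1.97 ± 0.32 on the log2 scale (SE, 3 libraries a group; DESeq2 adjusted p = 5.05e-07), a 3.92-fold rise with a 95 percent interval of 2.56 to 6.02. The mean level and the fold change together imply group means of 911 normalized counts in Ocln knockout cells and 232 in control cells. These implied means take the mean level as the average of groups of equal size. Among the 4799 other genes with a mean level within 2-fold of that of Naip6, 4 had a larger log2 fold change, the largest being that of Bnip5 at 2.87 in the authors' deposited table. The members were chosen by their pattern in this comparison, so this rank and those of the other members are a description only.

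Naip5, the second flagellin sensor and the gene behind the Lgn1 locus, had a mean of 227 normalized counts in the authors' deposited table. It rose by 1.96 ± 0.39 on the log2 scale (SE, DESeq2 adjusted p = 0.000184) in the authors' deposited table, a 3.90-fold rise with a 95 percent interval of 2.30 to 6.59. The implied means were 362 normalized counts in Ocln knockout cells and 92.8 in control cells. Of 3475 other genes of similar level, 7 had a larger log2 fold change. Naip6 stood at 252 percent of Naip5 in knockout cells and at 250 percent in control cells by the implied means, percentages that have no error here.

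Naip3 was a low-level row, with a mean of 13.2 normalized counts, and it rose by 5.96 ± 1.32 on the log2 scale (SE, DESeq2 adjusted p = 0.00157) in the authors' deposited table. The 95 percent interval of the fold ran from 10.4 to 371, so its size is poorly known. Its implied mean was 26.0 normalized counts in Ocln knockout cells and 0.419 in control cells. A control mean under 1 normalized count makes the fitted fold depend on very few reads, and it is not a bound. In 2496 other genes within 2-fold of its level, 0 had a larger log2 fold change, and the next in the authors' deposited table was Gm4847 at 3.88, which missed the threshold.

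The other 3 members did not pass. Naip1, the needle protein sensor, had a log2 fold change of 2.70 ± 1.04 (SE, adjusted p = 0.276, unadjusted DESeq2 p = 0.00917) at a mean of 8.55 normalized counts in the authors' deposited table. Its implied means were 14.8 normalized counts in Ocln knockout cells and 2.28 in control cells. An unadjusted p under 0.05 was reached by 9.07 percent of all listed genes. Naip2, the rod protein sensor, had 0.92 ± 0.47 (adjusted p = 0.551) on the log2 scale in the authors' deposited table, with implied means of 38.1 normalized counts in knockout cells and 20.1 in control cells. The 95 percent interval of its fold, 0.998 to 3.59, overlaps the interval of Naip5, and the difference between the members was not tested. The pseudogene Naip3-ps1 had 0.62 ± 0.68 (adjusted p = 0.888) in the authors' deposited table, with implied means of 17.6 normalized counts in knockout cells and 11.5 in control cells.

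**Figure D1:**
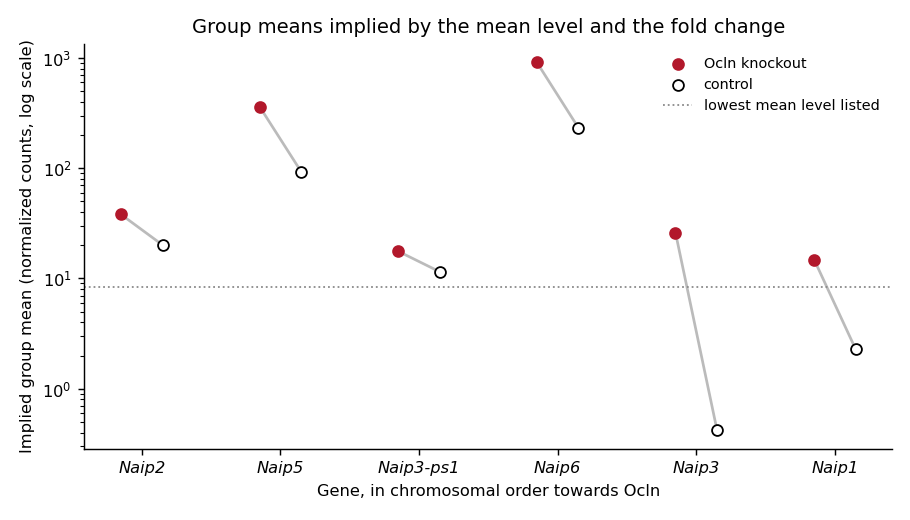
Implied group means of the 6 Naip genes in Ocln knockout cells (filled) and control cells (open), in normalized counts on a log axis, with genes in chromosomal order towards Ocln; the dotted line is the lowest mean level in the table, 8.35. Naip6 stood highest, at 911 in knockout and 232 in control cells, and the control means of Naip3 and Naip1 lay under the dotted line.

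Entry into the table bears on the low members. The lowest mean level listed was 8.35 normalized counts, and all 6 members were above it, Naip1 only just. The implied control means of 2 members, Naip3 and Naip1, were below that level, while the implied knockout means of 0 members were. Both therefore stand in the table through the group in which they are high, and neither their presence nor the count of positive members supports a change of the family.

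Precision differed between members. The SE of Naip6 was 0.32 on the log2 scale in the authors' deposited table, against a median of 0.19 for genes of similar level. That of Naip5 was 0.39 in the authors' deposited table, against 0.24, and that of Naip3 1.32, against 0.66. For Naip2 it was 0.47 in the authors' deposited table, against 0.50, so its precision was that of its level. Naip1, which did not pass, also had a larger SE than its level, 1.04 in the authors' deposited table, against 0.71. The values per library behind these errors were not used here.

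Per kb of the longest annotated transcript, the order of the mean levels over both groups, and of the implied knockout means, was Naip6, Naip5, Naip3-ps1, Naip2, Naip3 and Naip1. By the implied control means Naip1, at 0.416 normalized counts per kb, stood above Naip3, at 0.0995. Naip6 had 133 normalized counts per kb in Ocln knockout cells and 34.0 in control cells by the implied means, and Naip5 had 69.5 in knockout cells and 17.8 in control cells. The remaining members ranged from 2.71 to 11.2 normalized counts per kb in knockout cells and from 0.0995 to 7.31 in control cells. The table gives no spread for these levels, so which neighbours in that order differ cannot be said.

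Summed over the family, the implied means were 1369 normalized counts in Ocln knockout cells and 359 in control cells, a ratio of 3.81. Naip5 and Naip6 made up 92.4 percent of the summed mean level. How reads that fit several members enter such a sum is not known. It has no error here, because the covariance of the members over libraries is not in the table. Naip6 held 66.5 percent of the sum in knockout cells and 64.6 percent in control cells, Naip5 held 26.4 percent in knockout cells and 25.8 percent in control cells, and Naip3 1.90 percent in knockout cells and 0.117 percent in control cells.

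**Figure D2:**
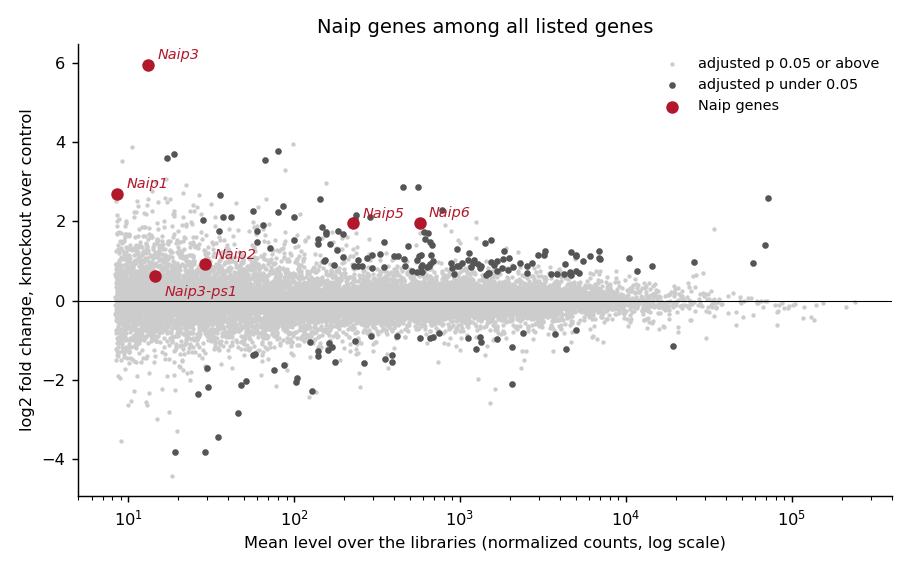
log2 fold change (knockout over control) against the mean level (normalized counts, log axis) for the 16701 listed genes, with those under an adjusted p of 0.05 in dark grey and the Naip genes in red. Naip3 is the highest point of the plot at 5.96, and Naip6 and Naip5 lie near 2 among genes of middle level.

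The members resemble each other closely enough for reads to fit more than 1 of them. Local alignment of the longest GENCODE transcripts gave 96.9 percent identity between Naip5 and Naip6 over 4398 aligned bases. Naip3 and Naip3-ps1 were 99.2 percent identical over 1054 bases, and Naip3 and Naip1 95.1 percent over 4196 bases. Naip2 was 89.1 to 93.7 percent identical to the other members.

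In stretches of 100 bases, 6.26 percent of those in Naip6 transcripts also stood in another member, against 16.2 percent for Naip5, 29.1 percent for Naip3 and 30.6 percent for Naip3-ps1. For Naip2 the value was 4.44 percent and for Naip1 13 percent. At 50 bases the share was 21.5 percent for Naip6, 36.2 percent for Naip5, 50.4 percent for Naip3 and 60.6 percent for Naip3-ps1. At 150 bases it was 1.89 percent for Naip6, 8.25 percent for Naip5, 16.4 percent for Naip3 and 11.1 percent for Naip3-ps1. At these lengths most of Naip6 and Naip5 can be told apart from their relatives in the reference, while Naip3 and Naip3-ps1 are less distinct. The sources used here give neither read length, aligner, strand setting nor the treatment of reads that fit several genes, so the division of reads among members is uncertain.

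The values of near-identical members differed in places. Naip3 shared 27.3 percent of the 100-base stretches of Naip3-ps1, yet the log2 fold changes of the pair in the authors' deposited table were 5.96 ± 1.32 and 0.62 ± 0.68 (SE). Naip3 stood at 7.19 percent of the implied Naip5 mean in knockout cells and at 0.451 percent in control cells. Of the 100-base stretches of Naip3, 14.0 percent stood in Naip1, 10.8 percent in Naip5 and 9.78 percent in Naip3-ps1. At 150 bases the shares were 6.85 percent for Naip1, 7.27 percent for Naip5 and 3.89 percent for Naip3-ps1. Whether misassigned reads contribute to the Naip3 row was not tested. In RefSeq, Naip3-ps1 also overlaps the end of Naip6.

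**Figure D3:**
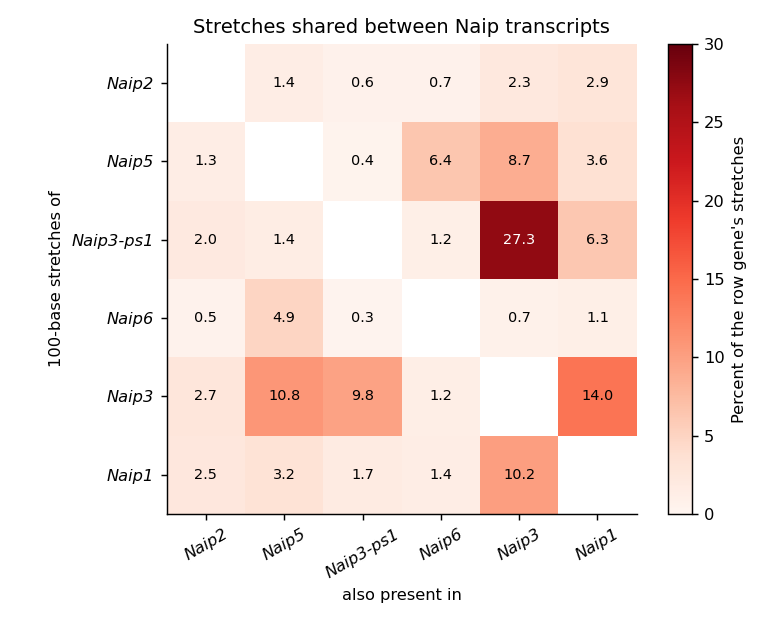
Percent of the 100-base stretches in the annotated transcripts of each Naip gene (rows) that are also present in each other Naip gene (columns). The highest value, 27.3 percent, is the share of Naip3-ps1 found in Naip3, while Naip6 shares 4.89 percent with Naip5 and less with the others.

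None of the listed genes next to the cluster, other than Ocln, passed an adjusted p of 0.05. Gtf2h2, which lies between Naip1 and Ocln and encodes a subunit of the repair and transcription factor TFIIH, had a log2 fold change of 0.09 ± 0.19 (SE) in the authors' deposited table. On the far side of the cluster, Smn1, the mouse survival motor neuron gene, had 0.28 ± 0.19, and its neighbour Serf1 had 0.59 ± 0.31 in the authors' deposited table. Bdp1, a subunit of the RNA polymerase III factor TFIIIB, had 0.29 ± 0.19 and Mccc2, a subunit of methylcrotonyl-CoA carboxylase, had -0.50 ± 0.22 in the authors' deposited table. Of the 10 listed genes nearest to the cluster on that side 0 passed in DESeq2 and 2 had an unadjusted p under 0.05, and their log2 fold changes ran from -1.20 to 0.59 in the authors' deposited table.

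Ocln itself fell, at -1.15 ± 0.16 on the log2 scale (SE, DESeq2 adjusted p = 4.36e-09) in the authors' deposited table and implied means of 1269 normalized counts in Ocln knockout cells and 2826 in control cells. The remaining Ocln reads cannot be placed in exons from this table. Of the 10 genes nearest on the other side of Ocln 0 passed in DESeq2 and 4 had an unadjusted p under 0.05 in the authors' deposited table, with log2 fold changes from -1.17 to 1.25. The closest of these, Marveld2, which encodes the tight junction protein tricellulin, had 0.51 ± 0.15 (adjusted p = 0.0678) in the authors' deposited table.

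**Figure D4:**
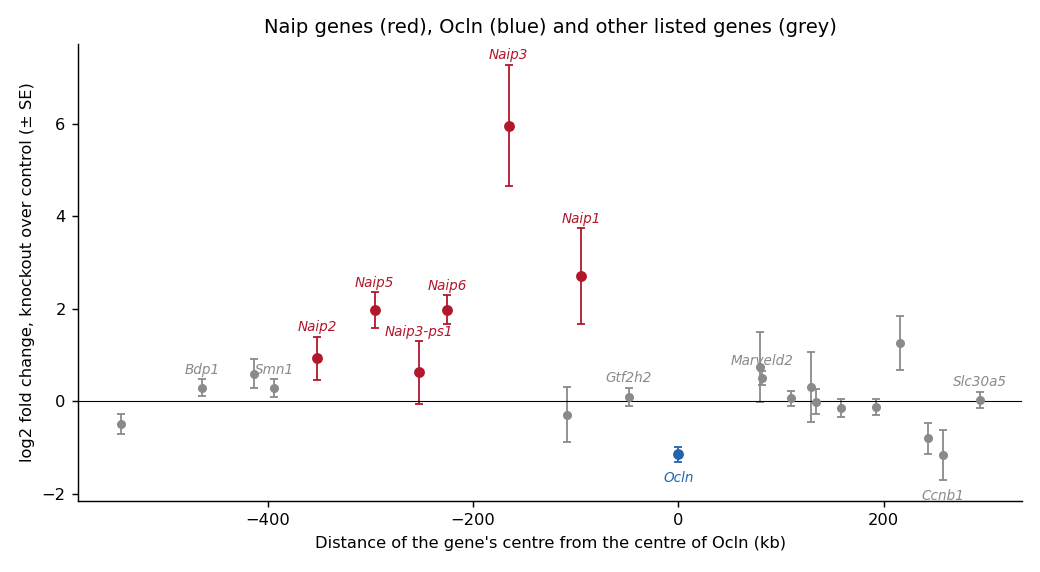
log2 fold change ± SE (knockout over control) of the listed genes around Ocln against the distance of each gene's centre from the centre of Ocln in kb, with Naip genes in red, Ocln in blue and other genes in grey. The red points lie between 0.62 and 5.96, Ocln at -1.15, and the grey points on both sides scatter around 0.

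Within 5 Mb of Ocln 80 genes are listed and 5 passed in either direction, or 6.25 percent, beside 1.08 percent of all genes. These were Ocln, Naip3, Naip5, Naip6 and Mast4, a kinase gene 2.18 Mb away at 0.65 ± 0.17 on the log2 scale (SE, DESeq2 adjusted p = 0.0139) in the authors' deposited table. Without Ocln and the Naip members, 1 of 73 genes passed, or 1.37 percent, which is near the background. At an unadjusted p under 0.05 there were 12 of these 73, or 16.4 percent, beside 9.07 percent of all genes. Within 1 Mb, 0 of the 20 genes other than Ocln and the Naip members passed an adjusted p of 0.05, and 5 of them, or 25 percent, had an unadjusted p under 0.05 in the authors' deposited table. On the whole of chromosome 13, 14 of 667 listed genes passed, or 2.10 percent, among them Ocln, Naip3, Naip5 and Naip6.

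Counted over the genome, 180 genes that passed have a position. Of these, 153 had no other gene that passed within 500 kb of their centre. Naip5, Naip6, Naip3 and Ocln were 4 genes that passed within such a window, and the interferon-inducible gene Ifi204 on chromosome 1 was the only other gene with as many around it. The members of such a group of neighbours are not independent of each other. The Naip members were chosen by their pattern in this comparison, and Ocln is the deleted gene. Their count of 4 is thus a description and supports nothing about the region.

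Partners and effectors of the NAIP-NLRC4 inflammasome were read from a list. It also holds genes of other inflammasomes, such as Nek7 and Casp4. Of its 14 genes, 1 rose and 0 fell at an adjusted p of 0.05, with a median log2 fold change of -0.05 against -0.01 over all genes. At an unadjusted DESeq2 p under 0.05, 3 were higher and 0 lower. Over all listed genes 1.08 percent passed in either direction and 9.07 percent had an unadjusted p under 0.05. These shares are also the background to the lists that follow. The rise at an adjusted p of 0.05 was Prkcd, the kinase PKC-delta that can phosphorylate NLRC4, at 0.67 ± 0.18 (SE, DESeq2 adjusted p = 0.0270) in the authors' deposited table. It was lost after the scores were scaled down for their inflation (adjusted p = 0.0813). The authors' own calls, which appear to need a log2 fold change near 1 in size, leave Prkcd out. Nek7 (-0.54 ± 0.32) and Il18r1 (-0.42 ± 0.67), the other members of that list with the highest levels, missed the threshold in the authors' deposited table.

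Further members of the inflammasome list were chosen after their values were seen. Nlrc4, the adaptor that all NAIP proteins need, was low at a mean of 17.2 normalized counts, with a log2 fold change of 0.60 ± 0.54 (SE, adjusted p = 0.851) in the authors' deposited table. Its interval of the fold, 0.723 to 3.16, leaves its response unresolved at this level. Casp1, the protease of the complex, had 0.54 ± 0.22 (adjusted p = 0.362) and Casp4, the receptor of cytosolic lipopolysaccharide in mice, 0.70 ± 0.29 (adjusted p = 0.352) in the authors' deposited table. Pycard, the adaptor ASC, had -0.42 ± 0.23 and Gsdmd, the pore-forming gasdermin D, -0.17 ± 0.35 in the authors' deposited table.

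Sensors of other inflammasomes were read in the same way. Of 9 other inflammasome sensors 4 are listed, and 1 fell, Aim2, a sensor of cytosolic DNA, at -1.03 ± 0.30 (SE, DESeq2 adjusted p = 0.0499) in the authors' deposited table. Its adjusted p lies close to the threshold, ran from 0.0425 to 0.133 over the other settings, and was above 0.05 in 4 of them. Nlrp3 (0.51 ± 0.38) and Nlrp9b (0.55 ± 0.55) missed it in the authors' deposited table. Of 13 other genes of the NLR family 7 are listed and 0 passed in DESeq2, with 1 at an unadjusted p under 0.05 and a median of 0.15. The members with the highest levels were Nod1 (0.15 ± 0.21), Nlrx1 (0.04 ± 0.18) and Apaf1 (0.35 ± 0.19) in the authors' deposited table.

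The BIR repeat that names the wider family is shared with inhibitors of apoptosis. Of 7 listed genes of that family, its antagonists included, 0 passed in DESeq2 and 1 had an unadjusted p under 0.05, with a median log2 fold change of -0.08. That gene was Birc3 at 0.73 ± 0.24 (SE, adjusted p = 0.141) in the authors' deposited table, while Birc6 (0.03 ± 0.18), Xiap (-0.08 ± 0.17) and Birc2 (-0.16 ± 0.21) were the highest in level. Of 20 listed Toll-like receptors and adaptors 0 passed and 2 had an unadjusted p under 0.05, both higher, with a median of 0.19. Tlr5, the membrane receptor of flagellin, was one of them at 0.70 ± 0.22 (adjusted p = 0.0776) in the authors' deposited table. Cd14 (0.33 ± 0.18), Irak1 (0.20 ± 0.16) and Traf6 (0.34 ± 0.18) had the highest levels of that list in the authors' deposited table.

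Among 6 transcription regulators linked to Naip or inflammasome genes 0 passed in DESeq2, and 2 were higher at an unadjusted p under 0.05, with a median of 0.20. Irf8, known in mouse macrophages to drive Naip expression, had 0.93 ± 0.44 (SE, adjusted p = 0.487) and Spi1, which encodes PU.1, had 1.27 ± 0.53 (adjusted p = 0.383) in the authors' deposited table. Irf1 (-0.09 ± 0.22) and Irf2 (0.16 ± 0.18) were among the highest of that list in level in the authors' deposited table. A further list of 18 genes of the Lgn1 region held 1 gene that passed, Ocln.

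**Figure D5:**
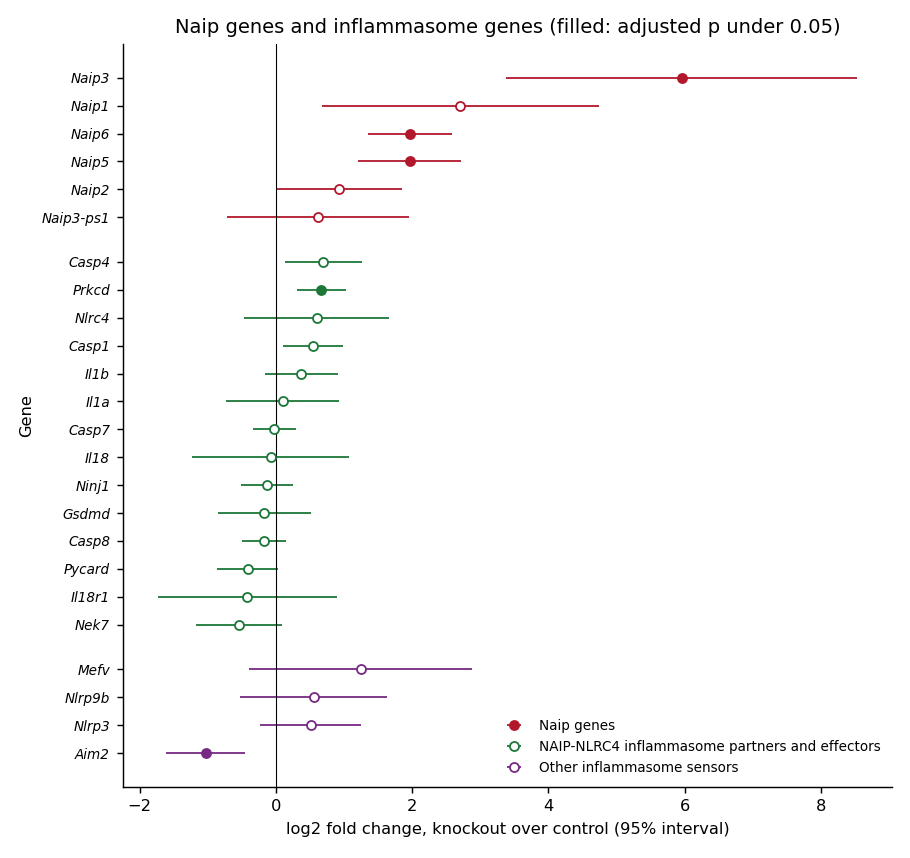
log2 fold change with its 95 percent interval (knockout over control) for the Naip genes and 2 lists of inflammasome genes, filled where the adjusted p is under 0.05. Naip6 and Naip5 stand at 1.97 and 1.96. The list of partners and effectors, which also holds genes of other inflammasomes, runs from -0.54 for Nek7 to 0.70 for Casp4.

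Markers of other cells in the preparation were read beside these results, since myeloid cells express Naip genes. In bulk RNA, fewer cells of a type and less RNA per cell cannot be told apart. Over all listed genes, 8145 of 16701 had a positive log2 fold change. Of all listed genes, 1.08 percent passed in either direction and 9.07 percent had an unadjusted DESeq2 p under 0.05. All 14 luminal markers are listed, with mean levels from 3504 to 84084 normalized counts, and 0 passed in DESeq2, with 2 at an unadjusted p under 0.05. Of 16 macrophage and monocyte markers, all listed, 14 had a positive log2 fold change and 0 passed in DESeq2, with 2 at an unadjusted p under 0.05 and a median of 0.46. Their implied summed level was 2830 normalized counts in Ocln knockout cells and 1922 in control cells. Of 11 neutrophil markers 7 are listed, all 7 positive with a median of 2.12, and 6 had an unadjusted p under 0.05. Of these 2 passed, S100a8 (2.12 ± 0.53 SE) and Ngp (3.78 ± 0.65), in the authors' deposited table. Their implied summed level was 407 normalized counts in knockout cells and 84.6 in control cells. The implied control means of Mpo (3.25), Camp (5.16) and Mmp9 (6.57) lay below the lowest mean level listed, 8.35. These markers therefore stand among the listed genes through the group in which they are high. The count of positive neutrophil markers thus supports no change of the list.

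The 5 listed dendritic cell markers were all positive, with 0 passing in DESeq2 and 2 at an unadjusted p under 0.05, at an implied sum of 322 normalized counts in knockout cells and 187 in control cells. Ly6g, Retnlg, Cxcr2 and Elane of the neutrophil list and Cd209a of the dendritic list were not analysed here. On the same log2 scale the ratio of sums was 1.93 for the Naip family, 0.56 for the macrophage list, 0.78 for the dendritic list and 2.27 for the neutrophil list. The part of these cells in the Naip values was not tested. Of 6 basal markers 0 rose and 1 fell, Oxtr, of 6 fibroblast markers 0 rose and 1 fell, Dcn, and of 4 endothelial markers 0 passed in DESeq2 or at an unadjusted p under 0.05.

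The genes most like the called members were taken as those that passed, had a mean level within 2-fold and were nearest in log2 fold change, over this 1 comparison. For Naip6, out of 51 candidates, they were Blnk (2.11 in the authors' deposited table), Pik3ap1 (1.73), Prickle1 (1.72), Gabrg3 (2.30) and Epha4 (1.56). For Naip5, out of 45 candidates, they were Padi4 (1.87 in the authors' deposited table), Sh3rf2 (2.07), Blnk (2.11), Tac1 (1.77) and Klk11 (2.18). For Naip3 there were 4 candidates, and the nearest, Bcl2l15 at 3.69 in the authors' deposited table, was 2.27 below it on the log2 scale, followed by Fut2 at 3.60. The other candidates for Naip3, Crabp1 (-2.34) and 2810459M11Rik (-3.82), were lower in the knockout in the authors' deposited table.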

How the data were processed

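RNA-seq of 3 Ocln knockout and 3 control libraries was used as the authors' deposited table of 1 comparison, fitted with DESeq2 on build mm10 per the submitters' processing notes. The sources used here name no aligner, counter, annotation or model formula. As deposited by the authors, and per the file headers, each gene has a mean level (a signal in normalized counts averaged over libraries), the log2 fold change with its SE, the Wald score, the p-value and its adjusted p-value, and a label Up, Down or Stable. Direction (knockout over control) follows the table's name. The score equalled the fold change over its SE within 2.58e-07, and the adjusted p-values differed from a Benjamini-Hochberg adjustment by at most 0.512 percent. No value per library was used, so depth per library is unknown and the authors' test stands as deposited.

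Genes whose adjusted p was under 0.05, over the 16701 listed, are said to pass or to be called. Intervals of 95 percent are 1.96 SE on either side. Implied group means solve the mean level and fold change for equal groups. Positions of 16565 genes came from GENCODE vM21 and RefSeq, both on GRCm38. Transcripts were compared with Python 3.11.15 and Biopython 1.88, by local alignment and exact stretches. The adjustment, inflation and length correction were tested on simulated data. Members, lists and motifs were chosen with earlier results of these data known. Genes named are the members, Ocln, the 10 nearest genes on each side, every called gene within 5 Mb, the called or 3 highest members of each pathway list and up to 5 genes most like each called member; others are said to be chosen after their values were seen or are examples of markers and level. One gene that this rule names is not reported here.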

Additional observations from a re-analysis of the deposited data

How the results depend on the processing

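Naip6, Naip5 and Naip3 passed in every setting that kept them, with adjusted p-values from 3.92e-07 to 1.07e-05 for Naip6, 0.000147 to 0.00141 for Naip5 and 0.00148 to 0.00804 for Naip3. A minimum mean level of 50 removed Naip3, Naip1, Naip2 and Naip3-ps1 and left 2 called members. The authors' own calls, on the unadjusted p, added Naip1 and gave 4. These calls appear also to need a log2 fold change near 1 in size. Irf8, at 0.93 with an unadjusted DESeq2 p of 0.0330, was labelled Stable. Over all genes, 181 calls became 107 at a threshold of 0.01, 117 where the log2 fold change also had to reach 1 in size, 119 after scores were divided by the root of their inflation of 1.18, and 466 by the authors' own calls. The 5 calls within 5 Mb of Ocln became 10 by the authors' own calls. The 3 calls in the pathway lists, Ocln, Prkcd and Aim2, became 1 at an adjusted p under 0.01, 1 after the division by inflation and 7 by the authors' own calls. Centring on the median of all genes moved each fold change by 0.01 and ended the call of Aim2 (adjusted p = 0.0528). Leaving out libraries was not run, and no paired analysis was possible because the table holds no values per library. Precision is that of the authors' SE, and the low levels of Naip1, Naip2, Naip3, Naip3-ps1 and Nlrc4 limit what can be said of them.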
